A study of Mus musculus with 2 samples.

Results

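The genes described here encode the folding machinery of the cytosol and the mitochondria: heat shock proteins of the Hsp70, Hsp90 and small families, the cochaperones that work with them, and the chaperonin TRiC. A list of 46 such genes was taken by name, and all probe sets whose platform symbol was a listed gene were taken. On the array 43 of the 46 were found, in 109 probe sets, among 18193 named genes and 45037 probe sets in all. Hsp90ab1 and Hsf1 had no probe set of that name in the probe table used here. Ptges3, the Hsp90 cochaperone p23, was named only on probe sets shared with another symbol and was left out. The intensity filter described below was passed by 41 of the 43.

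The study compared B cells of human AIRE transgenic mice and non-transgenic mice on the NOD background, an inbred strain prone to autoimmune diabetes. AIRE is the regulator through which thymic epithelium transcribes genes of other tissues, and an MHC class II promoter drove the transgene. Such promoters work in B cells and other antigen-presenting cells. The AIRE transgenic group was 1 array of B cell RNA from 2 mice, and the non-transgenic group, on the same NOD background, was 1 array of B cell RNA from 2 mice. Both groups were 8 weeks of age, and their cells were labelled as B220-positive and negative for Thy1 and CD11c. With 1 array for each group no test could be made, every ratio describes these 2 arrays, and mouse, handling and genotype cannot be told apart.

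Chaperones of the Hsp70 family bind exposed hydrophobic stretches of other proteins in a cycle driven by ATP. J proteins deliver the client and stimulate ATP hydrolysis, and exchange factors of the Hsp110 and BAG families release ADP and the client. Hsp90 completes the folding of kinases and receptors with cochaperones that pass clients to it, TRiC folds actin and tubulin in a closed chamber, and mitochondria hold their own Hsp70, Hsp60 and Hsp90. When unfolded protein accumulates, heat shock factors bind inverted repeats of the letters GAA, called heat shock elements, and raise transcription of the inducible chaperones.

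Intensities below were aligned by array median, and each ratio is the log2 of transgenic over non-transgenic intensity. A value under the floor of 25.1 was set to it for ratios, and a gene was kept when its higher value reached the filter of 98.8. A gene is represented by its probe set of highest mean level, and the term 2-fold refers to this ratio. Over the 10778 genes above the filter log2 ratios had a median of 0.19 (SD 0.58 across genes), while other scalings gave medians of 0.01 (none), 0.05 (quantile) and 0.03 (loess). Ratios of members are therefore best read against this shift.

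Chaperone genes were mostly higher on the transgenic array, and the largest differences among those above the filter were those of Hspa1b, Hspa1a and Hspa2. Among the 41 members that passed the filter, 8 exceeded 2-fold upward, as did 4.43% of all 10778 genes, and 0 exceeded it downward, as did 3.19%. Without the alignment those shares of all genes were 2.70% and 4.76%, and 6 members exceeded 2-fold upward and 0 downward. The 8 were Hspa1b, Hspa1a, Hspa2, Chordc1, Dnaja1, Hsph1, Bag2 and Dnajb4. The median log2 ratio of the 41 was 0.47 against 0.19 for all genes, and 35 of them lay above that all-gene median. Bag2 passed the filter by its transgenic value alone, and when both values had to pass, 7 of 40 members exceeded 2-fold upward against 2.53% of 9744 genes, and 0 downward against 1.43%. Many chaperone genes are bright. Among genes with a value of at least 1000 6 of 32 members and 2.39% of 4891 genes exceeded 2-fold upward, 0 members and 1.33% of genes downward, and the medians were 0.49 and 0.26.

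**Figure D1:**
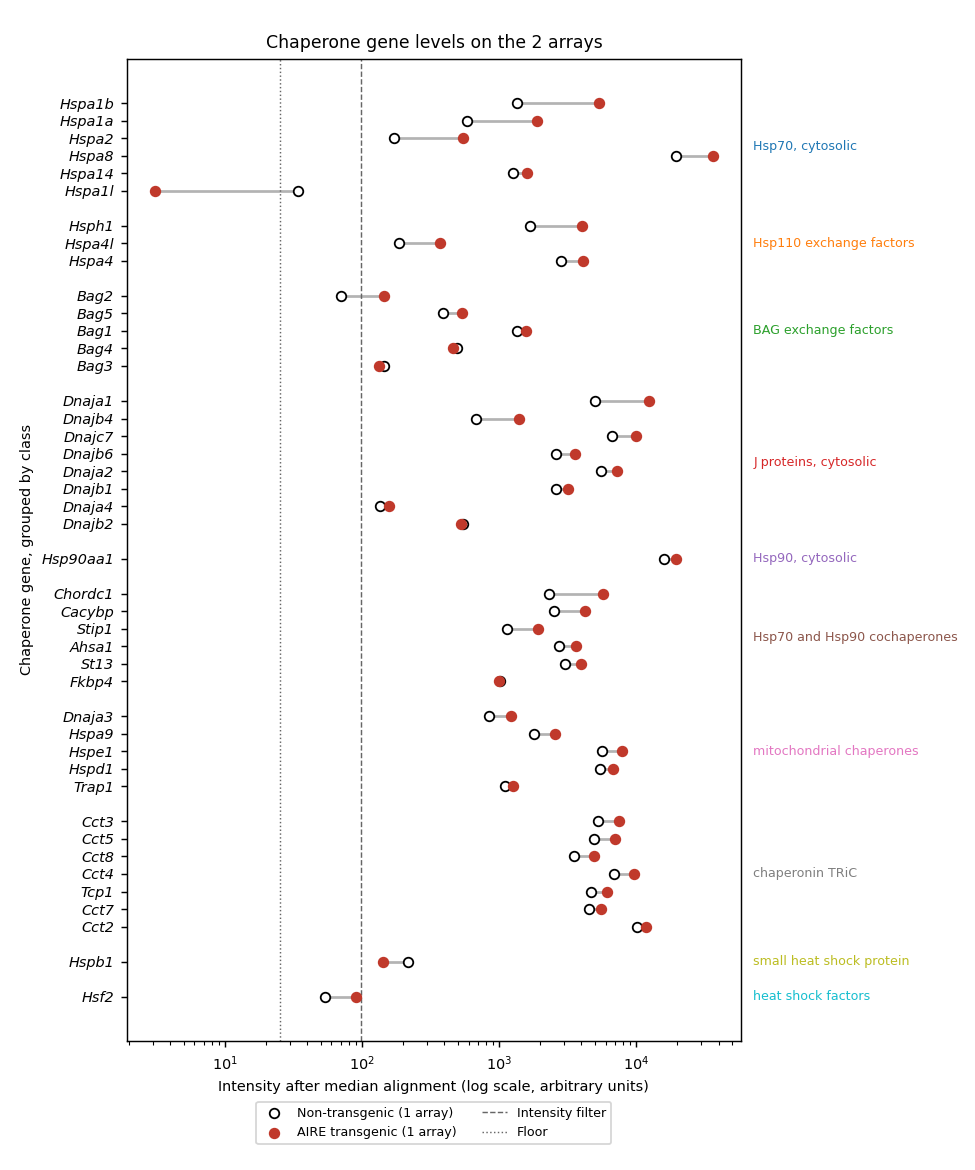
Intensity of each chaperone gene (log axis, arbitrary units, after median alignment) on the AIRE transgenic array (filled) and the non-transgenic array (open), by class, with the filter and the floor as vertical lines. Among genes above the filter the widest gaps are those of Hspa1b, Hspa1a and Hspa2, while Hspb1 lies the other way at 141 against 216.

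Markers of the sorted cells and of other cells moved between the same 2 arrays, and the lists split within themselves. Of 10 listed B cell markers 9 were on the array and above the filter, and 8 of these had a log2 ratio below 0. Their summed intensity was 144167 with and 212985 without it, with Ms4a1, the gene for CD20, at 29789 against 38866 and Cd79a, of the B cell receptor, at 19609 against 46825. Natural killer cell markers, 7 of 10 above the filter, summed to 5711 against 3340, and 5 of the 7 had a log2 ratio above 0. Gzma (2771 against 1369) made up most of that difference, Klre1 read 469.6 against 192, Gzmb ran the other way at 101 against 153, and Klra1 and Klra8 were under the filter. T cell markers, 7 of 10 above the filter, had nearly equal sums, in a ratio of 0.991, that hid opposite readings. Cd4 read 155 against 38.4 and Cd28 435 against 337, while Thy1, a marker used for depletion, read 101 against 208, and the list median was -0.20. Neutrophil markers, 5 of 8 above the filter, summed to 8842 against 8640.5, carried by S100a8 (3913 against 4393) and S100a9 (3604 against 3704). The dimmer Ngp (1011 against 371), Mpo (106 against 50.7) and Ltf (208 against 122) were all higher, and the list median was 0.77. Dendritic cell markers, 6 of 8 above the filter, had a ratio of sums of 0.782, which rested mostly on Ccr7 (1414 against 2476). Batf3 read 69.8 against 179, Zbtb46 126 against 67.6 and Itgax, the gene for the depletion marker CD11c, 804 against 670.4, and the list median was 0.09. Macrophage markers, 7 of 8 above the filter, had a ratio of sums of 1.10 and a list median of -0.06. Of the 7, 3 had a log2 ratio above 0, among them Csf1r (4090 against 2584), while Lyz2 read 5939 against 6172. Plasma cell markers, 6 of 6, had a ratio of sums of 0.884 and a list median of -0.21. Of the 6, 2 had a log2 ratio above 0, among them Xbp1 (8119 against 5930), while Jchain read 18279 against 23589.5. The 1 erythroid marker of 7 above the filter was Epor (139 against 122). These lists held no gene above the filter that was 2-fold apart. Hba-a1, Alas2 and Cxcr2 were at the floor on both arrays. Controls of RNA quality, read as the 3′ over the 5′ signal, did not all move one way. They were 1.49 in transgenic and 1.25 in non-transgenic RNA for beta-actin and 0.775 and 0.670 for Gapdh, but 1.38 and 2.32 for 18S and 4.20 and 4.59 for the transferrin receptor. The 3′ probe set of 18S itself read 355 against 59.8. The part of these differences in the chaperone ratios was not tested, and in such bulk RNA fewer cells of a type and less RNA per cell cannot be told apart.

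The cytosolic Hsp70 genes differed most. Of 6 listed, 5 were above the filter, 3 of these were at least 2-fold higher, and the class median was 1.67. Hspa1a and Hspa1b encode the stress-inducible Hsp70 and are near-identical copies, so that a probe set named for either may read both. In the RefSeq windows of build GRCm38.p6, from 250 bases before to 50 after the annotated start, the promoters of the pair had the same base at 296 of 300 positions. Their part from 150 bases before to 30 after the start is shown because these are the most elevated members and because it differs at only 2 of 180 positions. Capitals mark a heat shock element of 2 units, at 104 to 97 bases before each start (Hspa1a, chr17:34972127-34972306, minus strand; Hspa1b, chr17:34959209-34959388, minus strand).

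Hspa1a: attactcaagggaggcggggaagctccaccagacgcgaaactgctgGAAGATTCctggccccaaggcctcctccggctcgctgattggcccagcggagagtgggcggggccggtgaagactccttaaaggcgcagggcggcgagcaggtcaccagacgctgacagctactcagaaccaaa

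Hspa1b: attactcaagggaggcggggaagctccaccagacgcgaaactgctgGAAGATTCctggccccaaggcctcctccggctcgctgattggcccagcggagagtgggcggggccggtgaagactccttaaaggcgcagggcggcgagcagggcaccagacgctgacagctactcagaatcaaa

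The brightest Hspa1b probe set read 5334 in transgenic and 1351 in non-transgenic cells, 3.95-fold higher (log2 1.98). Its other probe sets read 2788 against 838 (1.73) and 2108 against 689 (1.61). The only Hspa1a probe set read 1897 against 579.7, 3.27-fold higher (1.71). All 4 probe sets of the pair thus stood at least 3-fold apart, at levels well above the filter on both arrays. Counted as 1 gene, the pair left 7 members of 40 at least 2-fold higher, where 4.42% of all genes were, and a class median of 1.28. That median is the midpoint of Hspa2 (1.67) and of the brightest Hspa8 probe set (0.89), so it depends on which Hspa8 probe set is taken.

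Hspa2, an Hsp70 best known from spermatogenesis, read 547 against 172, 3.19-fold higher (1.67), in its only probe set. Hspa8, the constitutive Hsc70 and the brightest member, read 36474 against 19656 (0.89) in its brightest probe set, which is marked as open to cross-hybridisation. Its other 3 probe sets differed far less, at 22483 against 19483 (0.21), 16385 against 13837 (0.24) and 1579 against 1353 (0.22). The first of these carries the same mark as the brightest. Those 3 ratios lie close to the all-gene median, so that the elevation of Hspa8 rested on a single probe set. Hspa14, an Hsp70 that works at the ribosome, read 1607 against 1269 (0.34), and 0.68 and 0.02 in its further probe sets. Hspa1l, the testis gene beside Hspa1a, lay under the filter at 3.08 against 34.4.

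Exchange factors related to Hsp110 were the second most elevated class, with a median of 0.99 over 3 genes. Hsph1, itself an inducible gene, read 4061 against 1671, 2.43-fold higher (1.28), in its brighter probe set, and the other read 2174 against 749 (1.54). Hspa4l read 373 against 188 (0.99), just short of 2-fold. Its 4 other probe sets had ratios from 0.33 to 0.90, so that all 5 were above 0. Hspa4 read 4085 against 2850.4 (0.52), and its dimmer probe sets spread widely, with 904 against 302 (1.58) and 359.8 against 396 (-0.14), and the last at 0.43.

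The Hsph1 window held a heat shock element of 3 units, which is the reason for showing it. Elements were searched as GAANNTTCNNGAA and TTCNNGAANNTTC for 3 units and as GAANNTTC and TTCNNGAA for 2 units, where each pair covers both strands and a 3-unit match also contains 2-unit matches. The 3-unit element of Hsph1, in capitals, lay 16 to 28 bases after the second of its annotated starts (chr5:149636286-149636465, minus strand).

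Hsph1: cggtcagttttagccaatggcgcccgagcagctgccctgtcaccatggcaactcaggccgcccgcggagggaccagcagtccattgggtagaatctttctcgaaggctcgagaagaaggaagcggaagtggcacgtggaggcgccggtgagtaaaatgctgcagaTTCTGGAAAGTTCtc

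BAG proteins, which share an exchange domain, did not stand apart as a group. Their median was 0.23 over 5 genes, close to that of all genes, and with both values above the filter it was 0.06. Bag2, which restrains the ubiquitin ligase that partners Hsp70, read 145 against 70.4 (1.05), the latter under the filter. Bag3, the stress-induced member that links Hsp70 to autophagy, read 133 against 146 (-0.14). It thus stood on the other side of 0 from the inducible Hsp70 genes, at a low level on both arrays. Bag1, an exchange factor tied to the proteasome, read 1588 against 1352 (0.23), and Bag5 read 535 against 390.4 (0.46). Bag4, a silencer of death receptors, read 461 against 498 (-0.11), and 0.38 and -0.30 in its further probe sets.

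J proteins of the cytosol had a median of 0.42 over 8 genes, 2 of them at least 2-fold higher. Dnaja1, a farnesylated partner of Hsc70, was the clearest, at 12333 against 4981, 2.48-fold higher (1.31). Its other probe sets read 4242 against 1509 (1.49) and 3638 against 1243 (1.55), so that all 3 exceeded 2-fold. Dnajb4 read 1392 against 675, 2.06-fold higher (1.04), but its other probe sets read 493 against 293 (0.75) and 94.7 against 100.2 (-0.08).

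Dnajb1, the main stress-induced Hsp40, gave readings that disagreed between its probe sets. The brighter by mean read 3215 against 2601 (0.31), and the other read 3604 against 1761 (1.03), past 2-fold. Dnajc7, which carries clients between Hsp70 and Hsp90, read 9942 against 6669.6 (0.58). Dnajb6, a suppressor of protein aggregation, read 3564 against 2619 (0.44), with the other 3 probe sets between 0.22 and 0.41. Dnaja2 read 7240.1 against 5520.5 (0.39), and its 3 others lay between 0.11 and 0.60. Dnaja4 (157 against 135, 0.22) and Dnajb2, a J protein of neurons (528 against 546, -0.05), lay near the all-gene median or below it.

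Dnajb6 carried a 3-unit element without reaching 2-fold, and its window is shown for that contrast with Hsph1. The element, in capitals, lay 127 to 115 bases before the second annotated start (chr5:29735829-29736008, plus strand).

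Dnajb6: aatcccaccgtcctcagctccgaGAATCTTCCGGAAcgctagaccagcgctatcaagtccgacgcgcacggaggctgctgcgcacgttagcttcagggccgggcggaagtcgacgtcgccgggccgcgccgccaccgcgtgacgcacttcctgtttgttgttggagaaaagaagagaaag

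**Figure D2:**
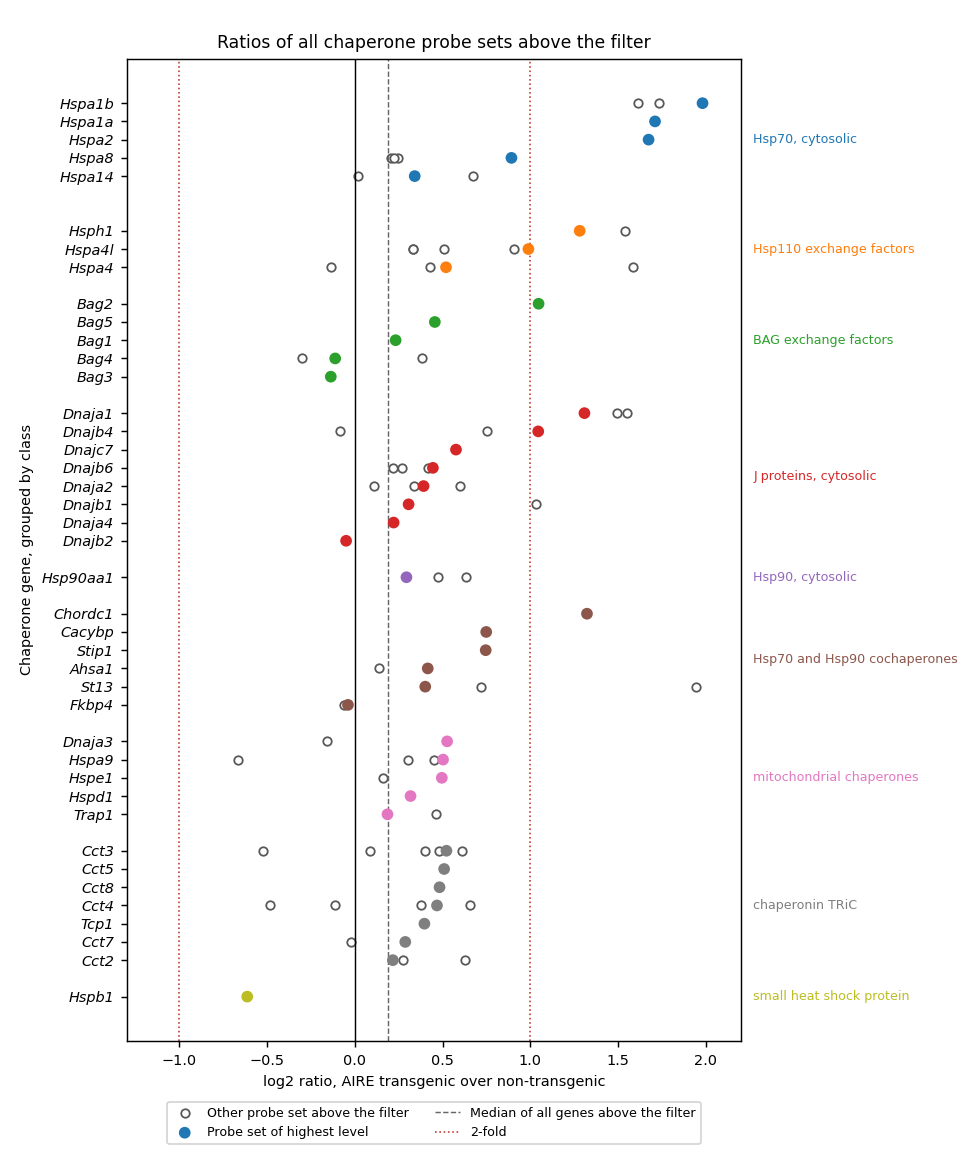
The log2 ratio of transgenic over non-transgenic intensity for every chaperone probe set above the filter, by gene and class, with the probe set of highest mean level filled and the others open. All probe sets of Hspa1b, Hsph1 and Dnaja1 lie past the 2-fold line, while those of Hspa8, Hspa4, Dnajb1 and St13 spread across a wide range.

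Of cytosolic Hsp90 the gene measured was Hsp90aa1, the more inducible isoform. It read 19604 against 15993 (0.29) in its brightest probe set, and 9411 against 6791 (0.47) and 6709 against 4328 (0.63) in the next. Its remaining probe sets were under the filter. All 3 readings above the filter were above the all-gene median and none reached 2-fold.

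Cochaperones of Hsp70 and Hsp90 had a median of 0.58 over 6 genes, with Chordc1 the only member at least 2-fold higher. Chordc1, a heat-inducible Hsp90 partner with zinc-binding CHORD domains, read 5764 against 2305, 2.50-fold higher (1.32), in its only probe set. Stip1, the scaffold Hop that joins Hsp70 to Hsp90, read 1913 against 1141 (0.75). Cacybp, a calcyclin-binding partner of Siah1, read 4267 against 2540.4 (0.75). Both exceeded 1.5-fold upward, as did 12 of the 41 members and 17.4% of all genes. At that threshold 1 member, Hspb1, lay downward, against 8.42% of all genes.

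Ahsa1, the activator of the Hsp90 ATPase, read 3672 against 2754 (0.42), with its dimmer probe set at 0.14. St13, the Hsp70-interacting protein Hip, read 3969.9 against 3007 (0.40) in its brightest probe set. Its other readings were 1300.3 against 789 (0.72) and 164 against 42.7 (1.94), and the last of these had a non-transgenic value under the filter. Fkbp4, an immunophilin of steroid receptor complexes, differed little, at 997 against 1025 (-0.04) and 165 against 173 (-0.06).

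The window of Chordc1 had the densest run of elements among the members, with overlapping 3-unit matches from 4 bases before to 19 bases after the start, in capitals (chr9:18292117-18292296, plus strand).

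Chordc1: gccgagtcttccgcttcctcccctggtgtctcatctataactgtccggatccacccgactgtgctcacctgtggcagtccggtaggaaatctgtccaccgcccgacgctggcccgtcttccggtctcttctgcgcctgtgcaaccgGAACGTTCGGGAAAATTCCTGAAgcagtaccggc

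Of 5 mitochondrial chaperones none reached 2-fold. Their median was 0.50, below those of the cytosolic Hsp70, Hsp110 and cochaperone classes, and the ratios ran from 0.19 to 0.53. Hspd1, the mitochondrial Hsp60, read 6760.3 against 5427 (0.32), and Hspe1, its lid of the Hsp10 kind, read 7938 against 5631 (0.50), while its second probe set read 3075 against 2751 (0.16). Hspa9, the mitochondrial Hsp70, read 2571 against 1815 (0.50). Its other probe sets above the filter were at 0.45, 0.30 and, in the dimmest, -0.67. Dnaja3, the mitochondrial J protein, read 1219 against 847 (0.53) and in a dimmer probe set 346 against 386 (-0.16). Trap1, the mitochondrial Hsp90, read 1266 against 1114 (0.19), at the all-gene median, and 0.46 in its other probe set.

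Hspd1 and Hspe1 are transcribed away from each other, and the window of the second annotated Hspd1 start overlapped that of Hspe1 by 285 bases. That shared stretch held overlapping 3-unit elements, 89 to 72 bases before the Hspe1 start, shown in capitals on the Hspe1 strand (chr1:55087998-55088177, plus strand). The window of the other annotated Hspd1 start held no match. Like Dnajb6, this pair held a full element and stayed under 2-fold.

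Hspe1: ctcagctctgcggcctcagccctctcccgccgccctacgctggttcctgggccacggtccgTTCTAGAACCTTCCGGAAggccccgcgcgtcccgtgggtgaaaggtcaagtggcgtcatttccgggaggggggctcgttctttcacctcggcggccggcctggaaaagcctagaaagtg

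The chaperonin TRiC was the most uniform class. All 7 subunits measured were above the all-gene median, with ratios from 0.22 to 0.52 and a median of 0.47, and none was as much as 1.5-fold higher. All 7 read above 1000, and genes with a value of at least 1000 had a median of 0.26, which Cct2 did not reach. Cct3 read 7521 against 5239 (0.52), Cct5 6982 against 4908 (0.51) and Cct8 4917 against 3519.7 (0.48). Cct4 read 9608 against 6948 (0.47), Tcp1, the founding subunit, 6170.0 against 4689 (0.40), and Cct7 5565 against 4561 (0.29). The second Cct7 probe set read 2069 against 2105 (-0.03). Cct2 was the brightest and differed least, at 11736 against 10103 (0.22), though its other probe sets were at 0.27 and 0.63. Dimmer probe sets of Cct3 and Cct4 lay as low as -0.52 and -0.49, so the uniformity is that of the brightest probe sets. Cct3 in particular was at -0.52 once probe sets whose name carries a letter mark (a, s or x) were left out. The brightest that remained was dim, at 246 against 353. The brightest Cct3 probe set carries the mark a, which denotes several transcripts of the same gene.

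Hspb1, the small heat shock protein that holds unfolded clients without ATP, was the lowest of the 41 members. It read 141 against 216 (-0.61), opposite in sign to the inducible Hsp70 genes. Its other probe set was under the floor on both arrays. Of the heat shock factors only Hsf2, a developmental relative of the main stress factor, was measured, and it lay under the filter at 90.5 against 54.0.

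**Figure D3:**
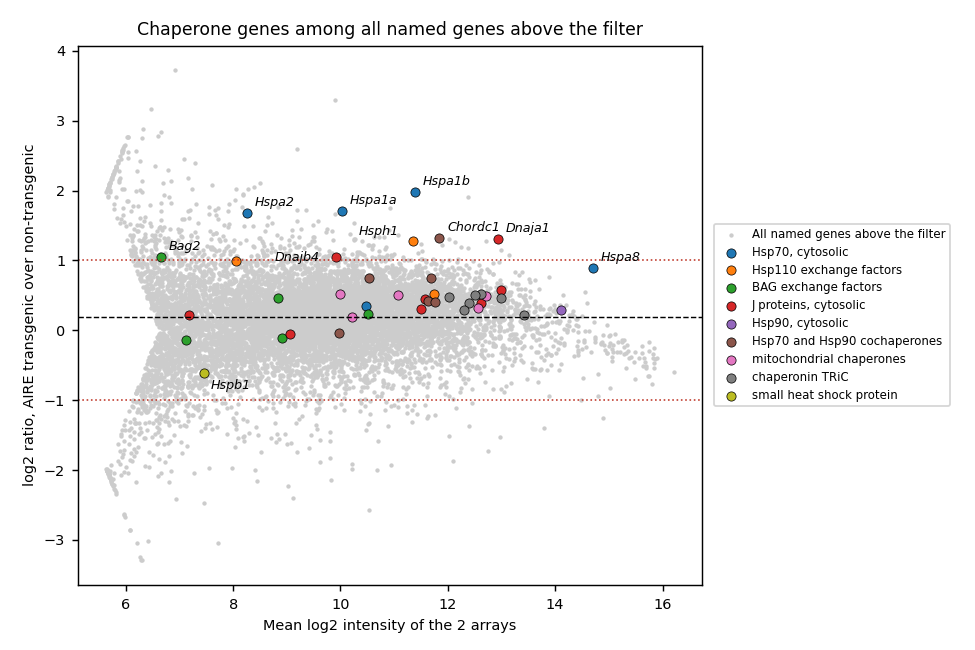
Log2 ratio of transgenic over non-transgenic against mean log2 intensity of the 2 arrays for the 10778 genes above the filter (grey) and the 41 chaperone genes (coloured by class), with the all-gene median dashed and 2-fold dotted. Hspa1b, Hspa1a, Chordc1, Dnaja1 and Hsph1 lie above the upper 2-fold line, and the TRiC subunits form a narrow band above the median.

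The wider chaperone network was taken from a list of 93 further genes, of which 86 were on the array and 74 above the filter. Of these 1 exceeded 2-fold upward and 1 downward, where 4.43% and 3.19% of all genes did, and the median was 0.21, close to that of all genes. The higher gene was Hspa13, an Hsp70 relative of the microsomes, at 1551 against 725 (1.10), and its further probe sets gave 1.14, 1.06 and, near the filter, -0.85. The lower gene was Dnajb12, a J protein of the endoplasmic reticulum membrane, at 246 against 714 (-1.54), and -0.43 in a second probe set. Cct6a, the TRiC subunit outside the member list, read 6547 against 4707 (0.48), inside the band of the other 7.

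The remaining groups were described by their medians. Prefoldin, which hands unfolded actin to TRiC, had a median of 0.22 over 8 genes, with Pfdn5 at 8251 against 5545 (0.57). Other Hsp90 cochaperones had -0.03 over 15, with Cdc37l1 at 4529.8 against 3098 (0.55), and other J proteins 0.12 over 19, with Dnajc8 at 6081 against 4703 (0.37). These last groups thus lay below the cochaperones and J proteins of the member list, whose medians were 0.58 and 0.42. Other Hsp70 partners had 0.34 over 6, with Bag6 at 1280.2 against 1077 (0.25), and the mitochondrial import and protease genes 0.18 over 15, with Timm44 at 2440.4 against 2344 (0.06). Of the other small heat shock genes only 2 of 8 passed the filter, Hspb11 among them at 702 against 545 (0.36). Regulators of the heat shock response had 0.19 over 5, with Ier5, a regulator of heat shock factor activity, at 11870.0 against 9634 (0.30).

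Promoter windows were on file for 38 of the members, and 5 of these (13.2%) held a 3-unit element: Hsph1, Chordc1, Dnajb6, Hspd1 and Hspe1. Such an element was held by 179 of 27025 genes (0.662%) with a window. An element of at least 2 units was held by 15 of the 38 (39.5%) and by 17.0% of all genes. Of the 8 members at least 2-fold higher, 6 held an element of at least 2 units and 2 a 3-unit element. Of the 27 others above the filter with a window, 9 and 3 did. These member counts hold repeated promoters. Hspa1a and Hspa1b, with near-identical windows, count as 2 genes, as do Hspd1 and Hspe1, which share the same elements. Across all genes above the filter the median log2 ratio was 0.17 for the 47 with a 3-unit element, 0.18 for the 1169 with 2 units only and 0.19 for the 7562 with none. A match is a description of the letters, and imperfect elements were not searched.

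**Figure D4:**
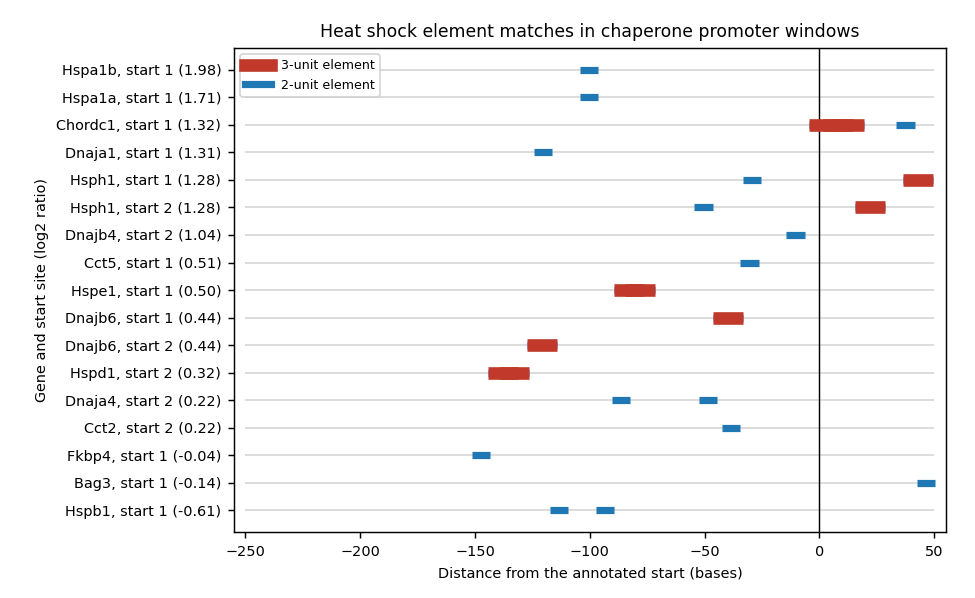
Position of heat shock element matches in the promoter windows of chaperone genes, from 250 bases before to 50 after each annotated start, for 3-unit (thick) and 2-unit (thin) elements, with genes ordered by the log2 ratio in brackets. Elements occur in genes with high ratios such as Hspa1b (1.98) and in genes with low ones such as Hspb1 (-0.61).

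The cytosolic Hsp70 genes had the highest class median under all 13 processing settings. The Hsp110 factors were second highest under 10 of them, with the Hsp70 and Hsp90 cochaperones second under the other 3. Hspa1a and Hspa1b counted separately in all but the setting that merged them, and that setting kept the brightest Hspa8 probe set. The class median of cytosolic Hsp70 genes exceeded the all-gene median by 1.07 to 1.57 over the 13 settings, and that of the Hsp110 factors by 0.40 to 0.96. The TRiC median exceeded it by 0.21 to 0.44 and the mitochondrial one by 0.09 to 0.47. Only the BAG median changed side, from -0.13 to 0.21, and Hspb1 stayed below in the 11 settings that kept it. Under every setting that kept them, 6 members were at least 2-fold higher: Hspa1a, Hspa1b, Hspa2, Hsph1, Dnaja1 and Chordc1. Dnajb4 was so in 8 of 13 and Bag2 in 9 of 11.

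**Figure D5:**
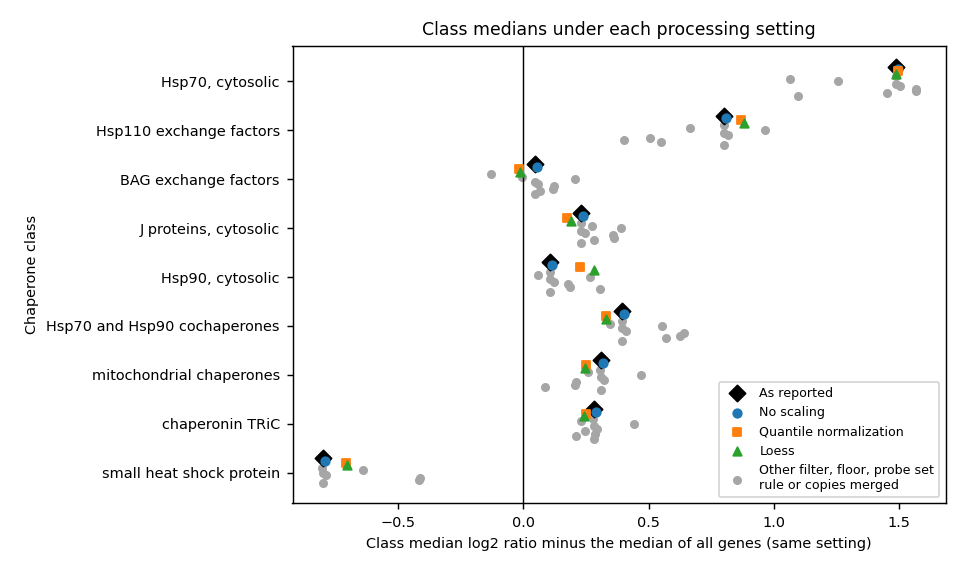
Median log2 ratio of each chaperone class minus that of all genes above the filter, under the reported setting (diamond), the other scalings and the other filters, floors and probe set rules (grey). The cytosolic Hsp70 genes lie farthest to the right throughout, and the BAG class lies on both sides of 0.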

How the data were processed

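RNA of B cells was hybridised to 1 Affymetrix mouse array per group after biotin labelling of fragmented cDNA, per the labels' protocols. The deposited values are linear signal intensities for 45101 probe sets, used as the authors' processed values. The authors' software is not given in the sources used here. After removal of the highest and lowest 2%, each array's mean was 500.0, which points to a global scaling before deposit.

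The 64 control probe sets were set aside. Of the rest, 34945 have a single symbol in the platform annotation, 932 have several and 9160 have none. Only those with a single symbol were named, and the 43 members matched RefSeq symbols (GRCm38.p6) by Entrez identifier. Each array was scaled to the pooled median (factors 1.06 and 0.947), floored at the 25th percentile and filtered at the median of all values. The members, lists and rules were chosen with earlier results of these data known. Every member is named, as are the genes of the wider chaperone network past 2-fold, the brightest of each of its classes and the brightest marker of each cell type; other markers and controls were added after their values were seen. Promoters shown are those of members with a 3-unit element, 2 past 2-fold and 2 not. Those of Hspa1a and Hspa1b were added after the matches were seen. A protein comparison that had been planned was not made. The ratio and filter steps were tested on simulated data. No detection calls were used, and precision is limited by having 1 array per group. Python 3.11.15, numpy 2.4.6, pandas 2.3.3, statsmodels 0.14.6 and matplotlib 3.10.9 were used.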

Additional observations from a re-analysis of the deposited data

How the results depend on the processing

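Of 12 alternatives in scaling, filter, floor, probe set rule and merging of the Hspa1a and Hspa1b copies, each left 6 to 8 members past 2-fold upward and 0 past 2-fold downward. Over these alternatives 2.53% to 5.17% of all genes exceeded 2-fold upward and 1.40% to 5.05% downward. At 1.5-fold, 12 members were higher and 1, Hspb1, was lower, against 17.4% and 8.42% of all genes. The members' median log2 ratio of 0.47 was 0.30 without scaling, after quantile normalization and after loess, 0.35 when probe sets were averaged and 0.34 when the median ratio was taken. Its excess over all genes, 0.28, was 0.23 to 0.30 under 11 of the 12 and 0.44 without the filter, which moved the all-gene median to 0.03. The genes 2-fold apart split 58.1% higher as reported, 36.2% without scaling (292 and 514 genes), 48.1% after quantile normalization and 48.0% after loess, against 477 and 344 as reported. The count of higher genes was 170 of 6719 with the filter at the 75th percentile and 247 of 9744 with both values above the filter. It was 286 of 10796 with the floor at the median and 941 of 18193 without a filter. Probe sets decided some members. Hspa8 was 0.22 without probe sets of a letter mark (a, s or x) and 1.04 after quantile normalization. St13 passed 2-fold when probe sets were averaged. Hsph1 had no probe set without a letter mark, but its mark was a, for several transcripts of the same gene. Probe sets of one gene differed with a pooled SD of 0.51 over 5172 genes. No paired analysis was possible because each group was 1 array.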

Other observations

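Outside the chaperone list, 42 genes above the filter held a 3-unit heat shock element in a promoter window. None of them was at least 2-fold higher, where 4.43% of all genes were, and 3 were at least 2-fold lower, where 3.19% of all genes were. Their median log2 ratio was 0.12. The extremes, picked after their values were seen, were the splicing factor gene Sf3b2 at 6326 against 3426 (0.88) and Cntd1 at 12968 against 7284 (0.83) on the high side. On the low side stood the potassium channel gene Kcnj6 at 55.8 against 126 (-1.17), Tmcc2 at 159 against 329 (-1.05) and Vps52, a gene of vesicle tethering, at 1049 against 2119 (-1.01). The readings of Sf3b2, Cntd1 and Tmcc2 come from probe sets marked as open to cross-hybridisation, so they may include other transcripts. These genes have 7, 3 and 2 probe sets, and only the brightest of each is given here. Bst2, the interferon-induced restriction factor tetherin, also held an element and read 1499.5 against 1018 (0.56).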
